A study of Mus musculus with 16 samples.

Results

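The genes examined encode 8 families of transcription factors that act later in development, namely Pax, Lhx, Dlx, Irx, Nkx, Tbx, Sox and the family of Six2 and Six3. Members were the RefSeq protein-coding genes of chromosomes 1 to 19 (GRCm38) whose symbol is one of these family names followed by a number, without Sox2. This gave 78 of 20665 protein-coding genes, namely 9 Pax, 8 Lhx, 6 Dlx, 6 Irx, 14 Nkx, 12 Tbx and 17 Sox genes and 6 genes of the family of Six2 and Six3. The choice used symbols and positions only, and no peak.

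Pax proteins bind DNA through a paired domain, Lhx, Dlx, Irx and Nkx proteins and the relatives of Six2 and Six3 through homeodomains, Tbx proteins through a T-box and Sox proteins through an HMG box. They direct the formation of organs such as the eye, heart, limb, kidney and nervous system, mostly after gastrulation. In embryonic stem cells many such genes have CpG-rich promoters that carry H3K4me3 together with the Polycomb mark H3K27me3 and little transcription. H3K4me3, trimethylation of histone H3 at lysine 4, is found mainly at promoters, and H3K27ac, acetylation at lysine 27, at active promoters and enhancers.

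The peaks come from mouse late 2-cell embryos taken 36 h after fertilization. Control zygotes had received water, and the other zygotes an mRNA for a mutant form of the histone deacetylase Hdac1. The labels name neither the mutation, the mouse strain nor the number of embryos per library. Chromatin was cut with micrococcal nuclease without crosslinking and precipitated with an antibody (ULI-NChIP-seq), and each of the 4 combinations of mark and injection had 2 such libraries, 2 input libraries and 1 peak list. The lists hold positions only. On chromosomes 1 to 19 the H3K27ac lists had 73320 peaks in control and 114737 in mutant embryos, covering 242 and 237 Mb. The H3K4me3 lists had 83220 and 83290 peaks, covering 247 and 273 Mb. With 1 list per combination no replicate error exists, the depth is unknown, and all differences below are differences between lists without a test.

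A gene was called marked when a peak reached within 2 kb of either end of the gene, and a peak is said to reach a neighbouring gene by the same limit. The promoters shown here span 250 bases before to 50 bases after a transcription start (RefSeq, GRCm38.p6), and 55 of the 78 genes had such an entry. CpG dinucleotides, searched as CG (a motif that reads the same on both strands), are in capitals, because H3K4me3 went with their number across all genes. A median of 19 CpG stood in the 12542 promoters of genes with control H3K4me3 and of 2.00 in the 3915 without it. At least 1 CG was present in 95% of the 16457 promoters of protein-coding genes. The first 4 promoters belong to genes marked in all 4 lists and have the fewest and the most CpG among them. Sox5, a regulator of cartilage and neurons, has 3 CpG (chr6:143947057-143947356, minus strand), and Sox15, the single SoxG gene, has 5 (chr11:69654787-69655086, plus strand).
Sox5: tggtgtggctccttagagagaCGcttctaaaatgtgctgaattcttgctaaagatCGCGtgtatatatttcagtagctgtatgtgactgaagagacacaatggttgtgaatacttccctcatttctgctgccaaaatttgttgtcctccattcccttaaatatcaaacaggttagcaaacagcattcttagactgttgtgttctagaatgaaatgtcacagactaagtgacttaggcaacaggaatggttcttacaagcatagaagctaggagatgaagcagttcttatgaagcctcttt
Sox15: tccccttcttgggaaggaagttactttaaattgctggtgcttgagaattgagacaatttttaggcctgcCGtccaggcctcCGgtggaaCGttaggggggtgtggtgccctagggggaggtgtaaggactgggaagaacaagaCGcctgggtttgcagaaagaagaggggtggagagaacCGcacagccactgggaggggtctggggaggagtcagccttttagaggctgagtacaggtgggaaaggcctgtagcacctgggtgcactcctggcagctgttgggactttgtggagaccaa
Lhx1, needed to form the head and kidney, has 31 CpG (chr11:84525485-84525784, minus strand), and Sox12, a SoxC gene, has 47 (chr2:152397997-152398296, minus strand).
Lhx1: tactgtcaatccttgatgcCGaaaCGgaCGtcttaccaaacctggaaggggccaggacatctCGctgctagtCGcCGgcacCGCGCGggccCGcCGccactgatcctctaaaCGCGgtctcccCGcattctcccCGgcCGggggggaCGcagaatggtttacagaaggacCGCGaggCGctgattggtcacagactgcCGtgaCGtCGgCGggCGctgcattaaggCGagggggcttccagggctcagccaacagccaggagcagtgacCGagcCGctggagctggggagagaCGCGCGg
Sox12: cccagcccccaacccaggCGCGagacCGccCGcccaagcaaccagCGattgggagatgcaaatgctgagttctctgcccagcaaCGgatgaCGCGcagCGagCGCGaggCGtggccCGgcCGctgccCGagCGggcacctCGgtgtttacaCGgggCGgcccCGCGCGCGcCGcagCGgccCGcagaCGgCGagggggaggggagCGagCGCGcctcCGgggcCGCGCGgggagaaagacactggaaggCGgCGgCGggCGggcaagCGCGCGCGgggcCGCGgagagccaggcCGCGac
The last pair was chosen after the values were seen. Nkx2-4, a relative of the thyroid and forebrain factor Nkx2-1, has 38 CpG (chr2:147085296-147085595, minus strand), the most among genes with H3K27ac in mutant embryos only. Sox14, a SoxB2 gene of the nervous system, has 26 CpG (chr9:99876121-99876420, minus strand) and carried a different mark in each condition.
Nkx2-4: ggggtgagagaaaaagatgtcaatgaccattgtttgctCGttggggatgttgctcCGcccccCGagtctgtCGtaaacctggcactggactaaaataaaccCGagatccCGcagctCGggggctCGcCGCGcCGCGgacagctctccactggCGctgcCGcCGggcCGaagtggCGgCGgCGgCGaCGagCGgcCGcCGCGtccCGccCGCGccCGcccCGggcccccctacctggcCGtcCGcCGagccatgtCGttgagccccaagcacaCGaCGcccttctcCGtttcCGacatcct
Sox14: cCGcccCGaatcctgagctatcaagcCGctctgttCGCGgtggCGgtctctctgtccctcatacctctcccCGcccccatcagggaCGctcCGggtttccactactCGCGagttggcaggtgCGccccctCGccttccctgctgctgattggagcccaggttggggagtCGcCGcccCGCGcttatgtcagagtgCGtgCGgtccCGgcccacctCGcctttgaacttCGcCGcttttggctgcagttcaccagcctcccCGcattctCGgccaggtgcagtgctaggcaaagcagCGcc

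These promoters differed in which lists covered them. The Sox15 promoter lay wholly under peaks of all 4 lists. H3K4me3 covered 100% of the Lhx1 promoter in both conditions and H3K27ac 0%. At Sox12 the promoter was under H3K27ac in control only and under H3K4me3 in both. The Nkx2-4 promoter was under H3K4me3 in both conditions and under H3K27ac in mutant only. At Sox14 it was under H3K4me3 in control only and under H3K27ac in mutant only. The Sox5 promoter, which lies inside the long Sox5 gene, had no peak, and its calls came from the outer ends of the gene.

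H3K4me3 marked nearly all of these genes and H3K27ac a minority. In control embryos 76 of 78 genes (97.4%, 95% Wilson interval 91.1 to 99.3, counting error over genes only) had H3K4me3 at a gene end, against 76.4% of all protein-coding genes. H3K27ac was present at 21 (26.9%, interval 18.3 to 37.7), against 56.3% of all. In mutant embryos 75 genes (96.2%) had H3K4me3, against 75.1% of all, and 40 (51.3%, interval 40.4 to 62.1) had H3K27ac, against 59.3% of all. The H3K27ac share was thus far under that of all genes in the control list and nearer to it in the mutant list.

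**Figure D1:**
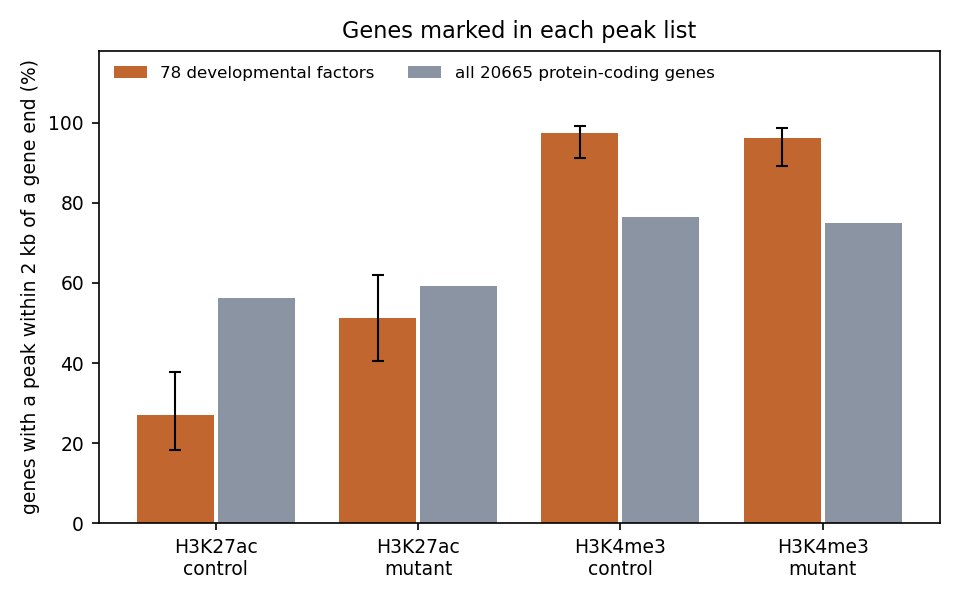
Share of genes with a peak within 2 kb of a gene end in each of the 4 peak lists, for the 78 developmental factors (orange, bars with 95% Wilson intervals) and for all 20665 protein-coding genes (grey). H3K27ac marks 26.9% of the factors in control and 51.3% in mutant embryos, while H3K4me3 marks 97.4% and 96.2%.

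Among genes with H3K4me3, H3K27ac was present at 21 of 76 factors in control (27.6%, against 68.6% of all such genes) and at 39 of 75 in mutant (52.0%, against 70.7%). H3K4me3 alone stood at 55 of the 78 genes (70.5%) in control embryos, against 24.0% of all genes, and at 36 (46.2%) in mutant embryos, against 22%. Both marks stood at 21 genes (26.9%) in control, against 52.4% of all, and at 39 (50%) in mutant, against 53.1%. No factor had H3K27ac alone in control, against 3.90% of all genes, and Sox14 was the 1 factor in that state in mutant, against 6.18%. Neither mark was found at Lhx4 and Pax8 in control, nor at Nkx2-6 and Six3 in mutant, against 19.7% and 18.7% of all genes.

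H3K27ac in mutant embryos only was the most frequent difference. It was called at 23 genes (29.5%), against 15.7% of all protein-coding genes, and H3K27ac in control only at 4 (5.13%), against 12.7%. The factors started from few control calls, so the shares were also taken by control state. Of the 57 factors without control H3K27ac, 40.4% had it in mutant, close to 35.9% of the 9032 such genes in all. Of the 21 factors with control H3K27ac, 19% lacked it in mutant, close to 22.6% of all. Among the 55 factors with H3K4me3 alone in control, 38.2% had both marks in mutant, against 44.9% of all such genes. Of the 21 with both marks in control, 4 had H3K4me3 alone in mutant, against 18.1% of all such genes. With the lists as deposited, a gene without control H3K27ac thus had it in the mutant list about as often whether or not it was one of these factors.

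The mutant H3K27ac list is the longer one, so the lists were also cut to equal length by width. The factors then had 20 mutant-only genes (25.6%) and 5 control-only genes (6.41%). Over all protein-coding genes the order was the other way, with 11.8% mutant-only and 15% control-only. By control state, 20 of the 57 factors without control H3K27ac had it in mutant (35.1%, 95% Wilson interval 24.0 to 48.1, against 27% of all), and 5 of the 21 with it lacked it in mutant (23.8%, against 26.6%). The 78 genes stand in 67 groups when those less than 100 kb apart are joined, so neighbouring members are not independent.

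Covered length was compared in the same windows. The mean share of gene-end window bases under H3K27ac was 7.38% in control and 15.1% in mutant embryos for the factors, but 26.4% and 22.8% for all genes. Coverage was higher in mutant at 36 factors (46.2%, against 32.7% of all genes) and lower at 8 (10.3%, against 37.9%). A gene without control coverage cannot be lower, so the 21 factors with it were also taken alone: coverage was higher in mutant at 13 (61.9%, against 30.1% of the 11633 such genes) and lower at 8 (38.1%, against 67.4%). Their mean coverage was 27.4% in control and 32.1% in mutant, against 46.9% and 34.3% for all such genes. The 57 factors without it averaged 8.86% in mutant, near the 8.03% of all such genes. The 17 factors with H3K27ac in both conditions had a median widest peak of 1224 bp in control and 2130 bp in mutant, with a median ratio of 1.31. For the 9007 such genes in all, the medians were 9342 and 5684 bp and the ratio 0.625. The mutant peak was the wider one at 12 of the 17 factors (70.6%), against 33.1% of all such genes. These widths compare the widest peak of each condition, and at 9 of the 17 (Lhx1, Pax2, Pax3, Pax9, Six4, Six5, Sox5, Tbx1 and Tbx2) the control and mutant peaks did not overlap (52.9%, against 35.9% of all such genes). At the 8 where they did, the mutant peak was the wider one at 5 (62.5%, against 30.7%). The 17 factors began from narrower control peaks, and the 21 from lower control coverage, than all such genes. Genes of like starting width were not compared, and the part of starting width in these contrasts was not tested. The bases under H3K27ac in both conditions made up 47.5% of the factors' control bases, near the 49.9% of all genes, and 23.9% of their mutant bases, against 57.8%.

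**Figure D2:**
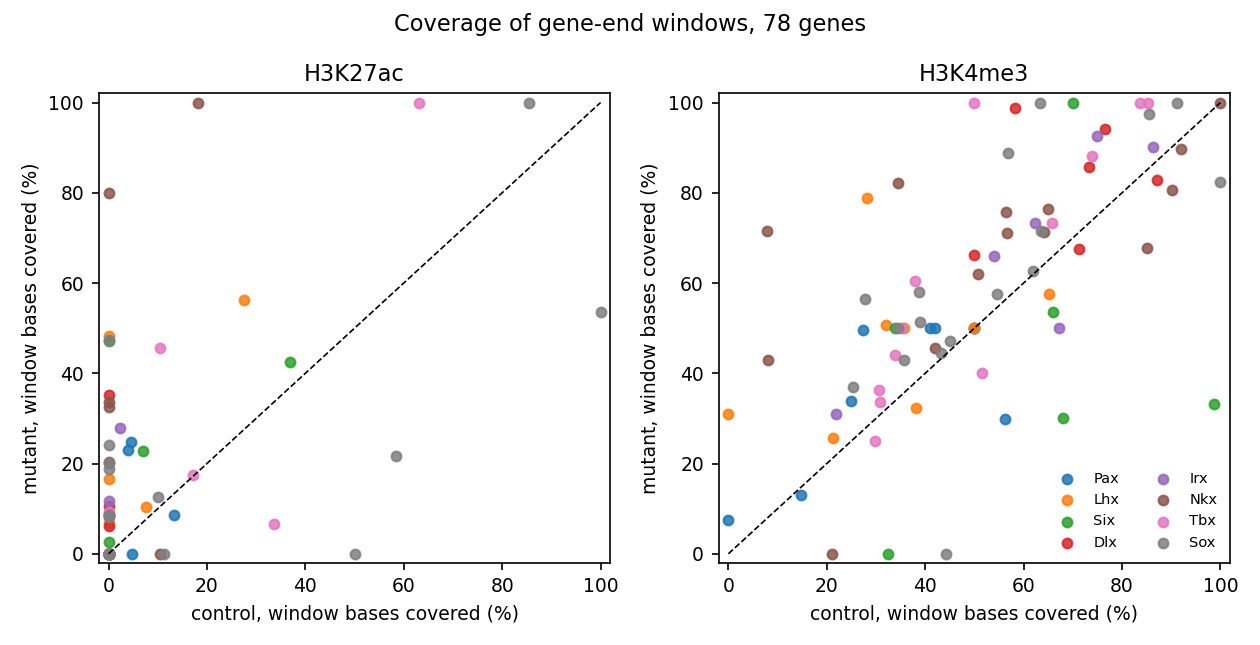
Share of gene-end window bases covered in control (horizontal) and mutant (vertical) embryos, H3K27ac on the left and H3K4me3 on the right, 1 point per gene and coloured by family; the dashed line marks equal values. For H3K27ac 36 genes lie above the line and 8 under it, most of the first at 0 in control; for H3K4me3 55 lie above and 19 under it.

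H3K27ac calls were fewer than at all genes 10 kb from these gene ends as well as at them. When the windows were moved by 10 kb to either side, 26.9% and 32.1% of the factors' windows met control H3K27ac, against 26.9% in place. Over all genes these shares were 52.7% and 52.3%, against 56.3% in place. With a shift of 50 kb the factors' shares were 43.6% and 47.4%, nearer to the 50.2% and 49.8% of all genes. In the mutant list the values were 51.3% in place and 48.7% and 46.2% at 10 kb, against 59.3%, 56.8% and 56.7% of all genes, and 52.6% on both sides at 50 kb, against 54.5% of all genes. For H3K4me3 the control share was 97.4% in place and 64.1% and 73.1% at 10 kb, against 76.4%, 58.0% and 57.6% of all genes. H3K27ac calls at the factors were therefore no more frequent at gene ends than 10 kb away in control or 50 kb away in either condition, whereas H3K4me3 calls were centred on the ends. The factors lie in gene-poor sequence, with a median of 20614 bp to the nearest protein-coding gene, against 4834 bp for all genes. From 2 to 50 kb beyond the gene ends the mean H3K27ac coverage was 13.2% in control and 14.7% in mutant for the factors, and 24.0% and 20.8% for all genes. The part of this spacing in the calls was not tested.

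**Figure D3:**
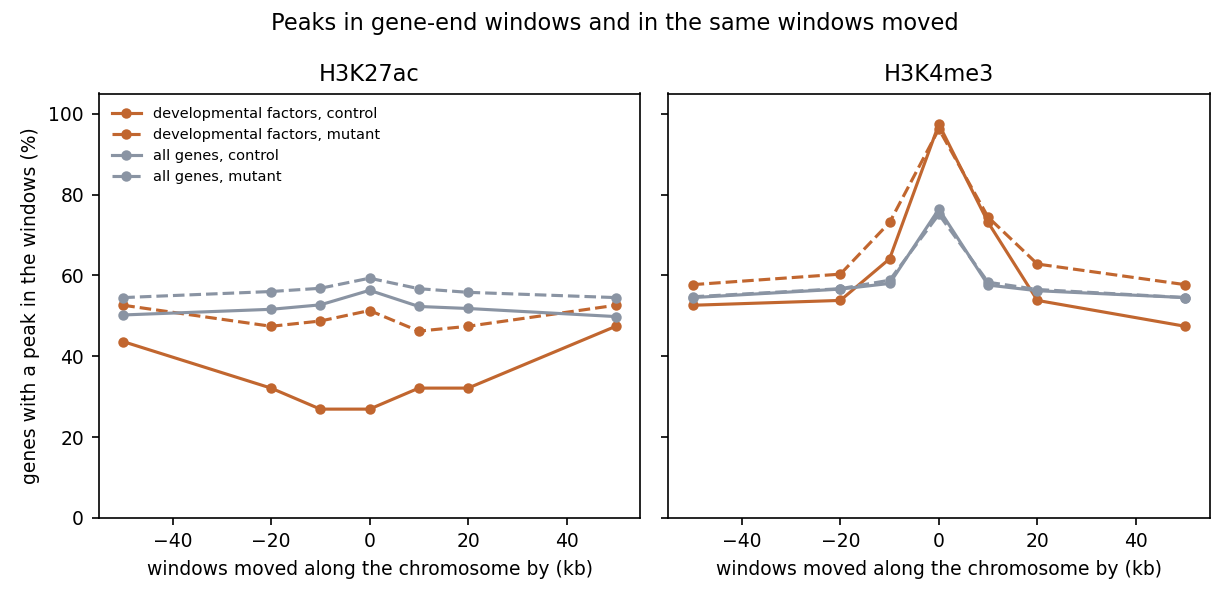
Share of genes with a peak in the gene-end windows in place (0 kb) and after moving the windows along the chromosome by up to 50 kb, for the 78 factors (orange) and all genes (grey), control as full and mutant as dashed lines. The control H3K27ac line of the factors is lowest in place and 10 kb to the left (26.9% at both), and the H3K4me3 lines peak at 97.4% and 96.2% in place.

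Strand-specific positions were available for 55 factors. In the first 500 bp after the start nearest the gene's 5′ end, H3K4me3 covered 85.5% (control) and 87.5% (mutant) of bases, compared with 67.8% and 64.9% for all 16457 genes with an entry. H3K27ac covered 12.2% there in control and 25.3% in mutant, against 36.8% and 29.6%. From 10 to 20 kb on either side the factors' mean H3K27ac coverage was 11.8% and 15.6%. The control coverage at the start was close to that of its surroundings, and the mutant coverage was above it. Within 2 kb of any listed start, 11 of 55 factors (20%, against 48.1% of all genes) had H3K27ac in control and 22 (40.0%, against 47.3%) in mutant. H3K4me3 was within 2 kb of a start at 52 (94.5%, against 73.8%) and 50 (90.9%, against 70.7%).

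**Figure D4:**
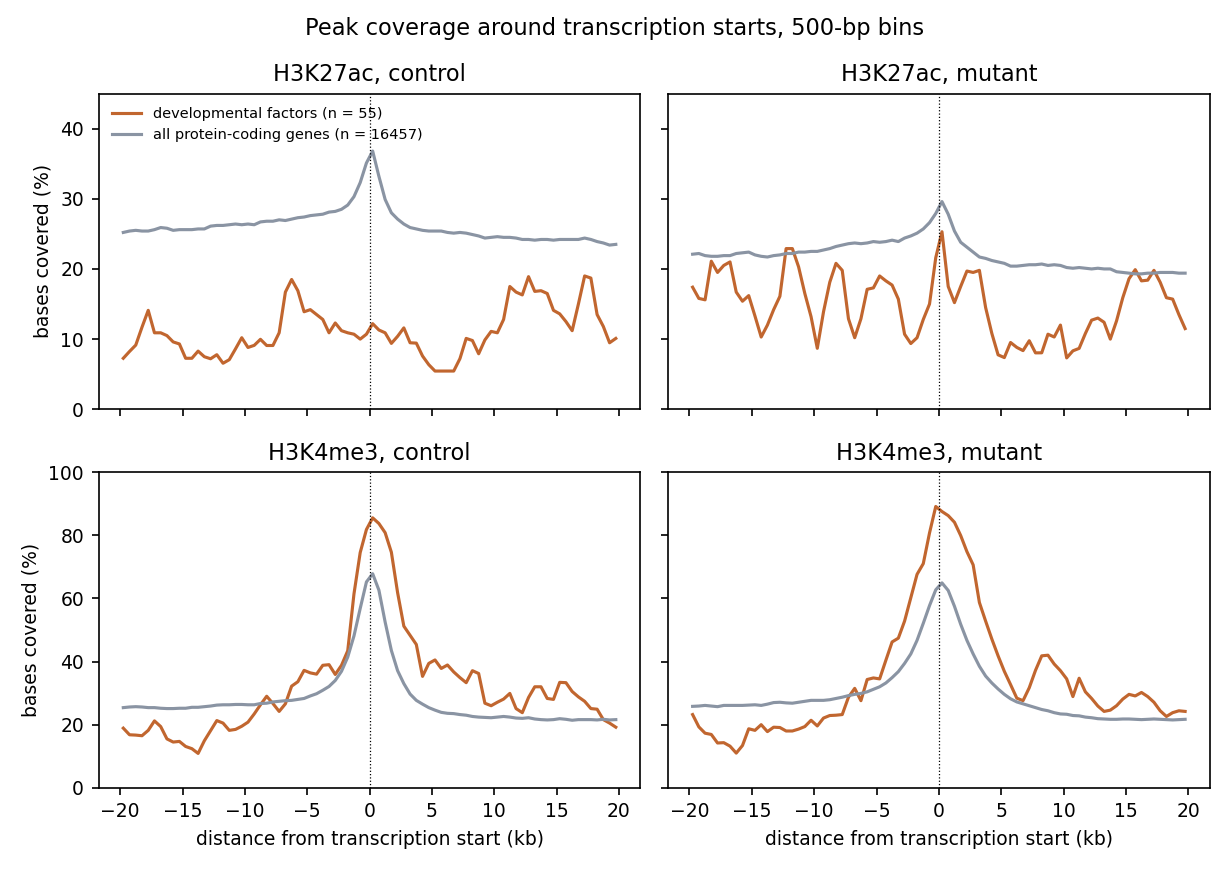
Mean share of bases covered by peaks in 500-bp bins within 20 kb of the transcription start, for 55 factors (orange) and 16457 protein-coding genes (grey), 1 panel per list and downstream to the right. In the first 500 bp after the start H3K4me3 covers 85.5% in control and 87.5% in mutant factors. H3K27ac there is at 12.2% in control, near the 11.8% found 10 to 20 kb away, and at 25.3% in mutant embryos.

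H3K27ac was also compared among genes with CpG-rich promoters. Of the 55 promoters, 36 held at least 15 CpG (65.5%, against 48.8% of all). Among these 36 genes 10 had control H3K27ac (27.8%), whereas 72.2% of the 8034 protein-coding genes with at least 15 CpG did. CpG number was not matched above that limit. In mutant embryos the shares were 58.3% and 72.7%. H3K4me3 marked 97.2% of the CpG-rich factors in control, near the 98.3% of all CpG-rich genes. Within the families, all 14 genes with an entry and mutant-only H3K27ac had at least 15 CpG (median 23.5), compared with 12 of the 24 with H3K27ac in neither condition (median 14.5) and 7 of the 14 with it in both (median 13.0). Over all genes the shares with at least 15 CpG were 44.7% of the 2574 mutant-only genes, 23.9% of those with H3K27ac in neither and 65.0% of those with it in both.

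The family counts below rest on 6 to 17 genes each, and differences between families were not tested. Of all protein-coding genes 56.3% had H3K27ac in control and 59.3% in mutant. Among all genes without it in control, 35.9% had it in mutant. The Dlx family had no control H3K27ac within 2 kb of a gene end. The nearest peak was 2620 bp from Dlx3, and within 1 kb the Irx family had none either. Dlx genes pattern the branchial arches, limbs and forebrain and lie in 3 pairs. None of 6 had H3K27ac in control, and 4 (Dlx1, Dlx4, Dlx5 and Dlx6) had it in mutant. The mutant count rests on the window, since the peaks at Dlx1, Dlx4 and Dlx5 lay more than 1 kb outside the genes and 1 of 6 (Dlx6) had H3K27ac within 1 kb of an end. All 6 had H3K4me3 in both conditions, with mean window coverage of 69.4% and 82.6%, the highest of the families. At Dlx1 (chr2:71528113-71533981) the mutant H3K27ac peak was 3929 bp wide, began 1164 bp beyond the gene and also reached Metap1d. H3K4me3 at Dlx1 spanned 7997 bp (control) and 10782 bp (mutant). Dlx5 (chr6:6877801-6882068) had a mutant H3K27ac peak of 1526 bp lying 1298 bp outside the gene, and widest H3K4me3 peaks of 6328 and 8201 bp that did not overlap. The 8201 bp peak also reached the neighbouring Dlx6, so those calls share a peak. Dlx3 (chr11:95120117-95125296), a regulator of hair and bone, had the widest H3K4me3 peak of the family at 17945 bp, and no H3K27ac. Its widest mutant H3K4me3 peak, of 16736 bp, did not overlap it. That mutant peak reached both Dlx3 and Dlx4, whose widest control peak was 4618 bp.

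The family of Six2 and Six3, whose proteins act with Eya cofactors in eye, muscle and kidney, had H3K27ac at 2 of 6 genes in control and 4 of 6 in mutant. Six4 (chr12:73099609-73114031) had H3K27ac peaks of 3060 bp in control and 3398 bp in mutant that lay at opposite ends of the gene. Within 2 kb of its listed starts H3K27ac was present in mutant only. H3K4me3 at Six4 spanned 17473 bp (control) and 6199 bp (mutant). Both of these H3K4me3 peaks and the mutant H3K27ac peak also reached the gene Mnat1. Six6, an eye and pituitary gene, had a mutant-only H3K27ac peak of 1123 bp.

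Nkx genes had H3K27ac at 2 of 14 in control and 5 of 14 in mutant. Their mean window coverage was 2.04% and 19%, against 26.4% and 22.8% for all genes. Nkx3-2 (chr5:41761483-41764220), a factor of the axial skeleton, had H3K27ac peaks of 1224 and 8856 bp covering 18.2% and 100% of its windows. Its H3K4me3 covered 100% in both. Nkx2-9 (chr12:56611389-56613569), a ventral neural tube gene, had no H3K27ac in control and a 4941 bp peak over 79.9% of its windows in mutant. Nkx6-2 (chr7:139579376-139582797), which acts in oligodendrocytes and motor circuits, had the widest control H3K4me3 peak of the family, 11382 bp against 7292 bp in mutant, and mutant-only H3K27ac of 1332 bp. All 3 of these peaks also reached Inpp5a. The heart factor Nkx2-5 (chr17:26838664-26844988) lacked H3K27ac at its ends in both conditions and had H3K4me3 of 3184 and 5427 bp. Within 2 kb of its listed start, however, there was a 675 bp control H3K27ac peak and none in mutant. Nkx2-3 (chr19:43612325-43615892), a factor of spleen and gut, was 1 of 4 genes with control-only H3K27ac, of 787 bp, beside H3K4me3 of 7718 and 8441 bp.

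Lhx genes, LIM-homeodomain factors, had H3K27ac at 2 of 8 in control and 5 of 8 in mutant. Lhx1 (chr11:84517975-84525534) had H3K27ac peaks of 610 bp in control and 867 bp in mutant, which lay beyond opposite ends of the gene. Within 2 kb of its listed start H3K27ac was thus present in control only. Its widest H3K4me3 peaks were 19064 and 9629 bp and did not overlap. Its widest control H3K4me3 peak also reached the gene Aatf. Lhx2 (chr2:38339271-38369737), a forebrain and eye factor, had mutant-only H3K27ac of 1331 bp outside H3K4me3, with H3K4me3 peaks of 2724 and 7832 bp. Windows of 5 kb reached a 177 bp control H3K27ac peak at Lhx2. Irx genes, which pattern neural tube and heart, had H3K27ac at 1 of 6 in control and 2 of 6 in mutant. Irx5 (chr8:92357796-92361456) had H3K27ac of 177 bp in control and 2130 bp in mutant, and H3K4me3 of 8121 and 7805 bp. Irx3 (chr8:91798511-91801654) had none, its nearest H3K27ac peak being 73578 bp away in control and 11217 bp in mutant, and H3K4me3 of 7238 and 10023 bp.

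Pax genes were the family with the same H3K27ac count, 4 of 9, in both conditions. Pax3 (chr1:78101267-78197136), a factor of neural crest and muscle, had H3K27ac of 312 and 1829 bp and H3K4me3 of 13111 and 25335 bp, the latter also reaching Gm2102. Pax6 (chr2:105668896-105698410), a regulator of eye and forebrain, had a control-only H3K27ac peak of 380 bp, which also reached Elp4, and H3K4me3 of 11668 and 6561 bp. Within 2 kb of the listed Pax6 starts, however, there was no control H3K27ac and a mutant peak of 2151 bp, so for Pax6 the direction depends on the window. Tbx genes had H3K27ac at 4 of 12 in control and 6 of 12 in mutant. Tbx1 (chr16:18580979-18590671), a pharyngeal and heart factor, had H3K27ac of 836 and 3605 bp and H3K4me3 of 12519 and 15504 bp. Tbx3 (chr5:119670534-119684724), a limb and heart factor, lacked H3K27ac in both calls and had H3K4me3 of 7191 and 6504 bp.

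Sox genes held both broad and narrow H3K27ac peaks. H3K27ac stood at 6 of 17 in control and 10 of 17 in mutant, with equal mean window coverage of 18.5%. The median widest H3K27ac peak was 12179 bp over the 6 and 1733 bp over the 10. Of the 5 factors with control H3K27ac wider than 5 kb (6.41%, against 34.8% of all genes), 4 were Sox genes. Sox12 (chr2:152393611-152398046) had 27733 bp in control and 8302 bp in mutant, with H3K4me3 of 14676 and 26095 bp. Sox15 (chr11:69655037-69656727) had H3K27ac of 22625 and 14311 bp and H3K4me3 of 36205 and 13787 bp. The Sox15 peaks also reached its close neighbour Fxr2, so they cannot be assigned to Sox15 alone. Sox13 (chr1:133382300-133424459), a SoxD gene, had 16448 bp of H3K27ac in control and none in mutant, with H3K4me3 of 12649 and 4855 bp. Sox30 (chr11:45979069-46017992), a gene of sperm development, had H3K27ac of 7910 and 1537 bp and H3K4me3 of 3551 and 5041 bp.

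The fifth such gene was Tbx6 (chr7:126781483-126785548), a factor of paraxial mesoderm, with H3K27ac of 9902 and 12055 bp and H3K4me3 of 9591 and 10327 bp. All 4 Tbx6 peaks also reached Gdpd3, Ypel3 and Ppp4c. In mutant embryos 6 factors (7.69%, against 26.5% of all genes) had H3K27ac wider than 5 kb, namely Sox12, Sox15, Tbx6, Nkx3-2, Lhx4 and Sox10. Sox10 (chr15:79154913-79164490), a neural crest factor, had the widest, a 28110 bp peak wholly outside the gene; H3K27ac covered 18.9% of its windows. Above 10 kb the count was 3 in each condition (3.85%, against 23.1% of all in control and 10.4% in mutant). Windows of 5 kb reached a 15631 bp control H3K27ac peak at Sox10, a 624 bp control peak at Nkx2-9 and a 1076 bp mutant peak at Sox13, so these calls depend on the window. The Sox10 H3K4me3 peaks measured 8195 and 6874 bp.

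Further Sox genes with mutant-only H3K27ac had narrow peaks. Sox17 (chr1:4490928-4497426), the endoderm and endothelium factor, had none within 41270 bp of its ends in control and a 1929 bp peak in mutant that lay wholly under mutant H3K4me3. Its H3K4me3 peaks were 6052 and 5888 bp. Sox21 (chr14:118233233-118237030), a SoxB2 gene, had a 637 bp mutant peak outside H3K4me3, and H3K4me3 of 2775 and 3348 bp. Sox9 (chr11:112782210-112787757), the cartilage and testis factor, had control-only H3K27ac of 896 bp and H3K4me3 of 4872 and 7819 bp. With windows of 1 kb the control H3K27ac call at Sox9 and the mutant call at Sox21 were both lost. For the 23 mutant-only genes the widest peak had a median of 1929 bp. It touched mutant H3K4me3 at 17 of the 23 (73.9%) and lay at least 50% under it at 14 (60.9%), against 55.5% and 44.4% of the 3247 mutant-only genes in all, whose median width was 1730 bp. It also reached another protein-coding gene at 2 (8.70%, against 18.4%).

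**Figure D5:**
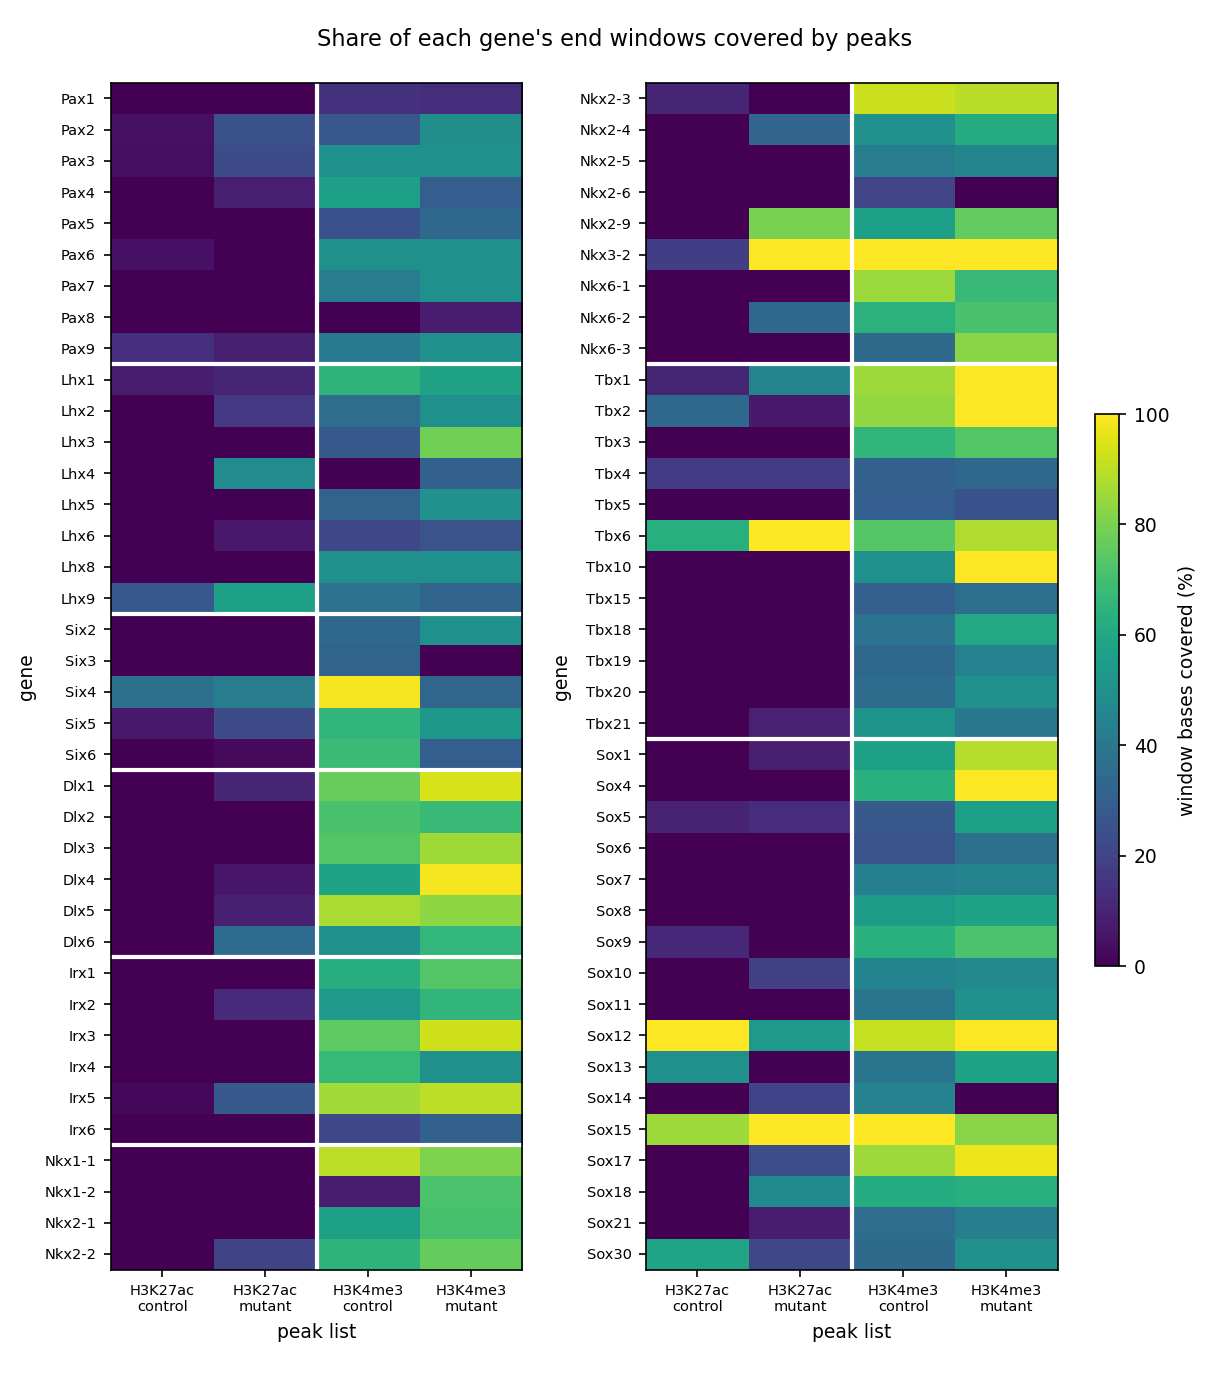
Share of each gene's end windows (2 kb on each side of both ends) covered by peaks, from 0 (dark) to 100% (yellow). There is 1 row for each of 76 of the 78 genes, ordered by family (white lines), and 1 column per peak list. The rest are not reported here. The H3K27ac control column is dark for all 6 Dlx genes and for most others, with the highest values at Sox12, Sox15 and Tbx6; the H3K4me3 columns are filled for nearly all genes.

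The genes with H3K27ac in neither condition numbered 34 (43.6%, against 28.0% of all). They included Dlx2, Dlx3, Irx1, Irx3, Irx4, Irx6, Lhx3, Lhx5, Lhx8, Nkx1-1, Nkx1-2, Nkx2-1, Nkx2-5, Nkx2-6, Nkx6-1, Nkx6-3, Pax1, Pax5, Pax7, Pax8, Six2, Six3, Sox4, Sox6, Sox7, Sox8, Sox11, Tbx3, Tbx10, Tbx15, Tbx18, Tbx19 and Tbx20. The 17 with H3K27ac in both were Irx5, Lhx1, Lhx9, Nkx3-2, Pax2, Pax3, Pax9, Six4, Six5, Sox5, Sox12, Sox15, Sox30, Tbx1, Tbx2, Tbx4 and Tbx6 (21.8%, against 43.6% of all). All 17 also had H3K4me3 in both, so they are the genes marked in all 4 lists (21.8%, against 40.2% of all). Besides those described, mutant-only H3K27ac stood among others at Irx2, Lhx6, Nkx2-2, Pax4, Sox1, Sox18, Tbx5 and Tbx21. The call at Tbx21, a T-helper cell factor, holds for the end windows only: control H3K27ac, nearest at 2154 bp from an end, covered 63.7% of the gene body and mutant H3K27ac 17.8%. The 2 kb limit decided a few calls. Tbx5 had mutant H3K27ac 1994 bp from an end and was counted, whereas Sox7 had it 2034 bp away and Sox10 control H3K27ac 2106 bp away, and they were not.

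H3K4me3 covered more of the windows in mutant than in control embryos at most factors. Window coverage averaged 51.6% in control and 59.1% in mutant, against 37.9% and 39.4% for all genes. It was higher in mutant at 55 factors (70.5%, against 43.2%) and lower at 19 (24.4%, against 32.7%). A gene with H3K4me3 in neither list cannot be higher or lower, which held for 18.7% of all genes and for 0 factors. The widest peak was wider in mutant at 52 of the 73 factors marked in both (71.2%, against 63.1% of the 14505 genes marked in both), and the control and mutant peaks overlapped at 63 of the 73 (86.3%, against 81.9%). The control and mutant medians over these 73 were 5164 and 6685 bp, with a median ratio of 1.30 against 1.23 for all genes. Peaks wider than 5 kb stood at 40 factors in control (51.3%, against 40.0%) and 51 in mutant (65.4%, against 49.3%). Above 10 kb the counts were 13 (16.7%, against 19%) and 19 (24.4%, against 25.1%). Among marked genes alone the shares above 5 kb were close, 52.6% of the factors against 52.3% of all in control and 68% against 65.7% in mutant. The median widest peak of marked genes was 5152 bp for the factors and 5286 bp for all in control, and 6651 and 7093 bp in mutant. The factors were thus marked more often, but their H3K4me3 peaks were not wider than those of other marked genes. The bases under H3K4me3 in both conditions made up 86.9% of the factors' control bases, against 79.3% for all genes, and 75.4% of their mutant bases, near the 76.3% of all genes.

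The H3K4me3 call was the same, present in both, at 73 factors (93.6%, against 70.2% of all genes) and differed at 5. Of the 76 with it in control 3 lacked it in mutant (3.95%, against 8.14%). It was control-only at 3 (Sox14, Six3 and Nkx2-6; 3.85%, against 6.22%) and mutant-only at 2 (Lhx4 and Pax8; 2.56%, against 4.90%). Sox14 (chr9:99874106-99876170) had a 2679 bp peak in control and none within 41335 bp in mutant, where an H3K27ac peak of 1225 bp lay over the same promoter. Nkx2-6 (chr14:69171802-69175540), a pharyngeal and heart gene, had 1626 bp in control and none within 13011 bp in mutant, with no H3K27ac in either. At Six3 (chr17:85613608-85626191), a forebrain and eye factor, the 5599 bp control peak reached a gene end, while a 7385 bp mutant peak lay within 2 kb of the listed start and 2229 bp from the nearest gene end. Lhx4 (chr1:155698031-155751726), a pituitary factor, had H3K4me3 of 3260 bp and H3K27ac of 5278 bp at a gene end in mutant only. At its listed start both marks covered the whole promoter in both conditions, with H3K4me3 peaks of 3699 and 11684 bp and H3K27ac peaks of 1462 and 909 bp. Pax8 (chr2:24420551-24475599), a thyroid and kidney factor, had a 608 bp peak in mutant only and none near its listed start. The differences at Six3 and Lhx4 thus concern the gene ends and not the listed starts, and that at Sox14 the start itself. By listed starts, H3K4me3 was also control-only at Irx4 (3198 bp), a heart gene, and Pax1 (1222 bp), a factor of the vertebral column, and mutant-only at Tbx10 (13211 bp). These 3 genes had H3K4me3 at a gene end in both conditions.

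Cofactors and relatives of these proteins were examined in the same way. The 22 cofactor genes (Eya, Dach, Ldb, Lmo, Pbx, Meis and Tle) had H3K27ac at 11 in control and 12 in mutant, against 56.3% and 59.3% of all genes, with 6 control-only (27.3%, against 12.7%: Eya1, Lmo1, Lmo3, Lmo4, Meis2 and Pbx4) and 7 mutant-only (31.8%, against 15.7%: among them Eya4, Ldb2, Lmo2, Pbx3, Tle1 and Tle4). H3K4me3 marked 20 and 19 of them (90.9% and 86.4%, against 76.4% and 75.1%). Mean H3K27ac coverage of their windows was 14.8% and 16.6%. The 10 relatives with other symbols (Lmx1a, Lmx1b, Isl1, Isl2, T, Eomes, Tbr1, Msx1, Msx2 and Msx3) had H3K4me3 at all 10 in both conditions. They had H3K27ac at 3 in control (Isl1, T and Tbr1) and at 3 in mutant (Isl1, Msx3 and Tbr1), 30% in each, against 56.3% and 59.3% of all genes.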

How the data were processed

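ULI-NChIP-seq of H3K27ac and H3K4me3 gave 16 libraries in 8 groups of 2, grouped by sample title. The deposited lists hold peak coordinates, with no counts, scores or p-values, so depth is unknown and no test was made. The submitters' processing notes name CASAVA, Trimmomatic, Bowtie2, SAMtools, Picard, MACS2 and deepTools and the builds mm10 and GRCm38, without roles or versions. Whether libraries were pooled before calling is not given in the sources used here. The lists differ in their smallest width and gap, which can change peak number and width.

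Gene positions and promoters came from RefSeq tables of GRCm38.p6. The gene table has no strand, so both gene ends were used, each with 2 kb to either side, and an overlap of at least 1 bp. Bases in the windows were counted per gene in Python 3.11.15 (numpy 2.4.6, pandas 2.3.3, scipy 1.17.1), with the overlap code tested on simulated peaks. Intervals cover counting error only. Members and lists were chosen with earlier results of these data known. Values in full are given for the widest control H3K4me3 gene of each family, all H3K4me3 differences, the widest H3K27ac differences and peaks, and 10 preset genes. A few of the genes that this rule or the lists take are not reported here. Most other members are named by their calls; genes given for comparison were named after their values were seen. Alternatives covered window size, starts only, list length, merging, width, overlap and joined loci.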

Additional observations from a re-analysis of the deposited data

How the results depend on the processing

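No paired analysis was possible because the libraries of a condition share 1 peak list, and for the same reason no library was left out in turn. A stricter threshold was replaced by the wider 50% of each list, since the lists hold no score. Common limits (peaks less than 750 bp apart merged, under 200 bp dropped) were chosen after seeing the data.

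Of the recomputed values 162 were unchanged (within 1.5 times the main count, or within the interval for coverage) and 20 moved. Most are single counts or coverages, which have no direction, and the equal-length cut leaves the shorter control H3K27ac list whole. Control-only and mutant-only H3K4me3 counts were 3 and 2 as reported. They were 2 and 4 in the wider 50%, and 1 and 2 by joined loci. H3K27ac wider than 5 kb stood at 5 control and 6 mutant factors. With windows of 5 kb these counts were 11 and 10, and with starts only 5 and 4. More factors had mutant-only than control-only H3K27ac under every alternative run, the difference being 19 as reported and 11 to 22 otherwise. Over all genes the shares were 15.7% mutant-only and 12.7% control-only as reported, and 11.8% and 15% with lists of equal length. For the other alternatives such shares are not given, and the counts describe the factors only. Of factors without control H3K27ac 40.4% had it in mutant as reported, against 35.9% of all such genes. At equal length the shares were 35.1% and 27%. Windows of 5 kb gave 34 factors with H3K27ac, and 34 with both marks, in control, 8 control-only, 11 and 10 with H3K27ac wider than 5 kb in control and mutant, and 0 with mutant-only H3K4me3. Starts only, with 55 genes left, gave 11 with H3K27ac in control, 22 in mutant, 14 mutant-only and a difference of 11. Both marks were then at 11 in control and 21 in mutant, mutant-only H3K4me3 at 1, and H3K4me3 covered 73.5% and 80.5% of windows in control and mutant. The wider 50% of each list gave 10 with control H3K27ac, 10 with both marks in control, 2 control-only for H3K27ac and 4 mutant-only for H3K4me3. Joined loci gave 1 with control-only H3K4me3. Of 252 recomputed calls of 21 named genes 16 changed, 12 of them with windows of 5 kb.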
